A study of Mus musculus with 18 samples.

Results

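The genes of the mammalian Hox clusters were followed through GFP-sorted mouse osteoblasts from 3 sources and the cells they were set against. Members were all rows of the count tables whose symbol was Hoxa, Hoxb, Hoxc or Hoxd followed by a paralog number, which gave 39 genes of the 20202 listed in any table: 11 in cluster A, 10 in cluster B, 9 in cluster C and 9 in cluster D. Of these, 29 were among the 15853 genes listed in all 3 tables. The cells carried the Col2.3GFP transgene, in which a fragment of the Col1a1 promoter drives green fluorescent protein (GFP) in maturing osteoblasts, so the sort itself selects for activity of that promoter. The 6 populations, with 3 RNA-seq libraries each, were GFP+ (hi) and GFP- cells sorted fresh from the long bones of Col2.3GFP mice, GFP+ (hi) and GFP- cells sorted from bone chip cultures of such mice under osteogenic differentiation, GFP+ (hi) osteoblasts differentiated from mouse Col2.3GFP embryonic stem cells (ESC-OB), and embryonic stem cells (ESC). The labels call both GFP- populations heterogeneous and also give the ESC libraries the treatment osteogenic differentiation. They give neither the age nor the sex of the mice, and do not say if the 3 libraries of a population stem from different animals or dishes. The p-values therefore measure only the spread between these libraries, which may be technical.

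Hox genes encode transcription factors that bind DNA through a homeodomain, and their order along each cluster follows the order of their expression domains from the head to the tail of the embryo. Low paralog numbers mark anterior levels such as the hindbrain and pharyngeal arches, whereas high numbers mark the posterior trunk and are used again along the limb from its root to its digits. Skeletal cells keep part of this code in the adult, and their Hox genes are used as marks of the place in the body from which such cells came.

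The 39 genes lie on mouse chromosomes 6 (cluster A), 11 (cluster B), 15 (cluster C) and 2 (cluster D). Their coding sequences are close relatives, so the reads that each gene could share with another were counted first. Among the 741 pairs of members, 3 shared an identical stretch of at least 100 bases, the read length of the study, and each was a pair of overlapping neighbours: Hoxa2 and Hoxa3 (269 bases), Hoxb7 and Hoxb8 (1069 bases), and Hoxd3 and Hoxd4 (831 bases). Among the 42 pairs of the same paralog number in different clusters, the longest shared stretch was 50 bases and the median was 17 bases. The homeobox, the 180 bases that encode the homeodomain, was 67.2% to 93.9% identical in those pairs (median 80.6%) and 46.1% to 88.9% identical in the other 699 pairs (median 60.6%). The homeobox sequences of a pair of posterior and a pair of anterior genes that the comparisons turn on are printed to show how far same-number paralogs differ where they are most alike. They are the sense strand of the NCBIM37 (mm9) assembly, each inside a single coding exon, with capitals where Hoxc10 differs from Hoxa10 (35 bases) and where Hoxa2 differs from Hoxb2 (46 bases). Hoxa10 lies at chr6:52182553-52182732 (minus strand), Hoxc10 at chr15:102801279-102801458 (plus strand), Hoxb2 at chr11:96214299-96214478 (plus strand) and Hoxa2 at chr6:52113410-52113589 (minus strand).
Hoxa10: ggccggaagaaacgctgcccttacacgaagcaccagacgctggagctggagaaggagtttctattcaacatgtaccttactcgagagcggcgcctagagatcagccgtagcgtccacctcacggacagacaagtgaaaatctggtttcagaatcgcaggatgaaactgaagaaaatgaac
Hoxc10: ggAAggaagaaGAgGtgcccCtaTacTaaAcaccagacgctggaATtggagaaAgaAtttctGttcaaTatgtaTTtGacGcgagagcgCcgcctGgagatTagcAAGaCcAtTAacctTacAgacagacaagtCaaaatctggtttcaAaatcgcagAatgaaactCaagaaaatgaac
Hoxb2: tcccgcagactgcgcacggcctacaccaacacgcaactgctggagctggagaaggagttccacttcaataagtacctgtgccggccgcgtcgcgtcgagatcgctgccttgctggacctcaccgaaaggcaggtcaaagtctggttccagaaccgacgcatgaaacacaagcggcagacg
Hoxa2: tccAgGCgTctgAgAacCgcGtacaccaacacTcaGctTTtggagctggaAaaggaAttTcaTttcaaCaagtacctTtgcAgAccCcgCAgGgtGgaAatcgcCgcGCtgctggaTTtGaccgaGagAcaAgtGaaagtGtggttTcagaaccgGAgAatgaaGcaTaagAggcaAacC

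Overlap with other transcription units was common. In the GENCODE annotation of that assembly, 18 of the 39 genes overlapped another gene in exonic sequence, 12 on the same strand and 8 on the opposite strand. Hoxb2 overlapped the antisense transcript Hoxb3os over 1632 of its 3304 exonic bases, Hoxb3 overlapped it over 1140 of 3006, and Hoxa11 overlapped Hoxa11as over 1038 of 2689. The library kit does not mark strand, so reads from these genes and from their antisense partners cannot be told apart.

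Promoters were available in RefSeq (GRCm38.p6) for 22 members, as 24 windows of 250 bases before and 50 bases after a transcription start. They were searched on both strands for the TATA box TATAAA, the CCAAT box with the letters of its name, the Runx2 motif TGTGGT, the nuclear receptor half-site AGGTCA, the Hox with Pbx motif TGATNNAT and the Meis motif TGACAG. The CCAAT box was in 15 of the 24 Hox windows (62.5%) and in 37.4% of all 32851 windows of the same length, AGGTCA in 7 (29.2%) against 16.3%, TGATNNAT in 4 (16.7%) against 8.85%, TATAAA in 4 (16.7%) against 13.6%, TGACAG in 2 (8.33%) against 19.2%, and TGTGGT in 1 (4.17%) against 16.8%. A match is a description of letters and not a site. The windows of Hoxa2, an anterior gene that was higher in ESC-OB than in ESC, and of Hoxa10, a posterior gene that was lower in GFP+ than in GFP- chip cells, are printed on the strand of the gene with the motifs in capitals. The Hoxa2 window (chr6:52164782-52165081, minus strand) held 4 CCAAT motifs, 1 TGATNNAT and 1 TGACAG, the last directly followed by a CCAAT. The Hoxa10 window (chr6:52234890-52235189, minus strand) held 1 TATAAA and 1 CCAAT, both on the opposite strand, while the window of the upstream Hoxa10 start and the windows of Hoxa11 and Hoxa9 held none of these letters.
Hoxa2 promoter: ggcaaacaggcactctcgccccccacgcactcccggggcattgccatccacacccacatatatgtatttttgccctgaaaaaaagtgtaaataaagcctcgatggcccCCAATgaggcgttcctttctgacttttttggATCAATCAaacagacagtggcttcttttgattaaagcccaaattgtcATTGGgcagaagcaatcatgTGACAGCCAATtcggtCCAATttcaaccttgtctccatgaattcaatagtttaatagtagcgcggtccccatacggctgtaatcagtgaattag
Hoxa10 promoter: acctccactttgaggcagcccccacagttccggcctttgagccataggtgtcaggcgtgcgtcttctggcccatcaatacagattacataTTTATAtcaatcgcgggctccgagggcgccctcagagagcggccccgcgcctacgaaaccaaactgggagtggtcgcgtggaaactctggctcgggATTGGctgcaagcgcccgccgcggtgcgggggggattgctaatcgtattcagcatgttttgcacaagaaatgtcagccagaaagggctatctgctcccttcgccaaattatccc

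Library totals ran from 4920977 to 43874837 counts. The bone GFP+ libraries (21425212 to 43874837) were deeper than the bone GFP- libraries (5482065 to 6468750), and the ESC libraries held 4920977 to 21215099. Levels are given as CPM, counts per 1000000 counts of a library total scaled by the trimmed mean of M-values (TMM) over all 18 libraries, and as CPM per kb of exon where genes are compared with each other. The scaling factors were 0.427 to 0.443 in bone GFP+ and 1.76 to 1.83 in ESC-OB, so without them the median of all genes moved to -1.06 log2 units in bone GFP+ over bone GFP- and to 2.11 in ESC-OB over bone GFP+. Of the mature osteoblast markers (Col1a1, Ibsp, Bglap and others), 12 of 12 were higher in GFP+ than in GFP- bone cells and 11 of 12 in chip cells. In ESC-OB over ESC, 6 of 8 tested were higher and 1 lower. Over all genes tested, 19.5%, 20.4% and 43.0% were higher in these comparisons, and 34.7% were lower in ESC-OB than in ESC. Of 13 pluripotency genes, 13 were lower in ESC-OB than in ESC. Within bone, 7 of 8 tested pluripotency genes were higher in GFP+ than in GFP-, Nanog at 5.15 to 6.58 CPM in GFP+ bone against 0 to 0.17 CPM in GFP- bone and 538 to 655 CPM in ESC. The Y-linked gene Ddx3y stood at 54.6 CPM in bone GFP+ replicate 2 but at 0.31 and 0.39 CPM in replicates 1 and 3, against 64.3 to 144 CPM in bone GFP- and at most 0.11 CPM in all chip, ESC-OB and ESC libraries. Calls of bone GFP+ against bone GFP- that rest on replicates 1 and 3 are therefore also given without them. The same was done for the difference of GFP effects. Against chip or ESC-OB libraries, replicate 2 is the bone GFP+ library that differs in these transcripts, so that fit does not match the groups there.

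The 6 populations transcribed different parts of the clusters. Members with a mean of at least 1 CPM numbered 15 in bone GFP+, 12 in bone GFP-, 16 in chip GFP+, 18 in chip GFP-, 5 in ESC-OB and 3 in ESC. The summed Hox level averaged 126 ± 22.5 CPM in bone GFP+, 88.5 ± 11.4 CPM in bone GFP-, 80.9 ± 8.34 CPM in chip GFP+, 154 ± 6.91 CPM in chip GFP-, 16.9 ± 7.26 CPM in ESC-OB and 17.3 ± 11.8 CPM in ESC (SD, n = 3 each). Every bone and chip library (lowest 71.7 CPM) lay above every ESC-OB and ESC library (highest 30.7 CPM), and the ranges of ESC-OB and ESC overlapped. The separation rests on the scaling factors. Per unscaled total, bone GFP+ replicate 2 (1053 Hox counts of 21425212) lay below ESC replicate 1 (281 of 5566062). Without the factors every bone GFP+ library also lay below every bone GFP- library in summed Hox level. In these bulk libraries fewer cells of a type and less RNA per cell cannot be told apart.

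**Figure D1:**
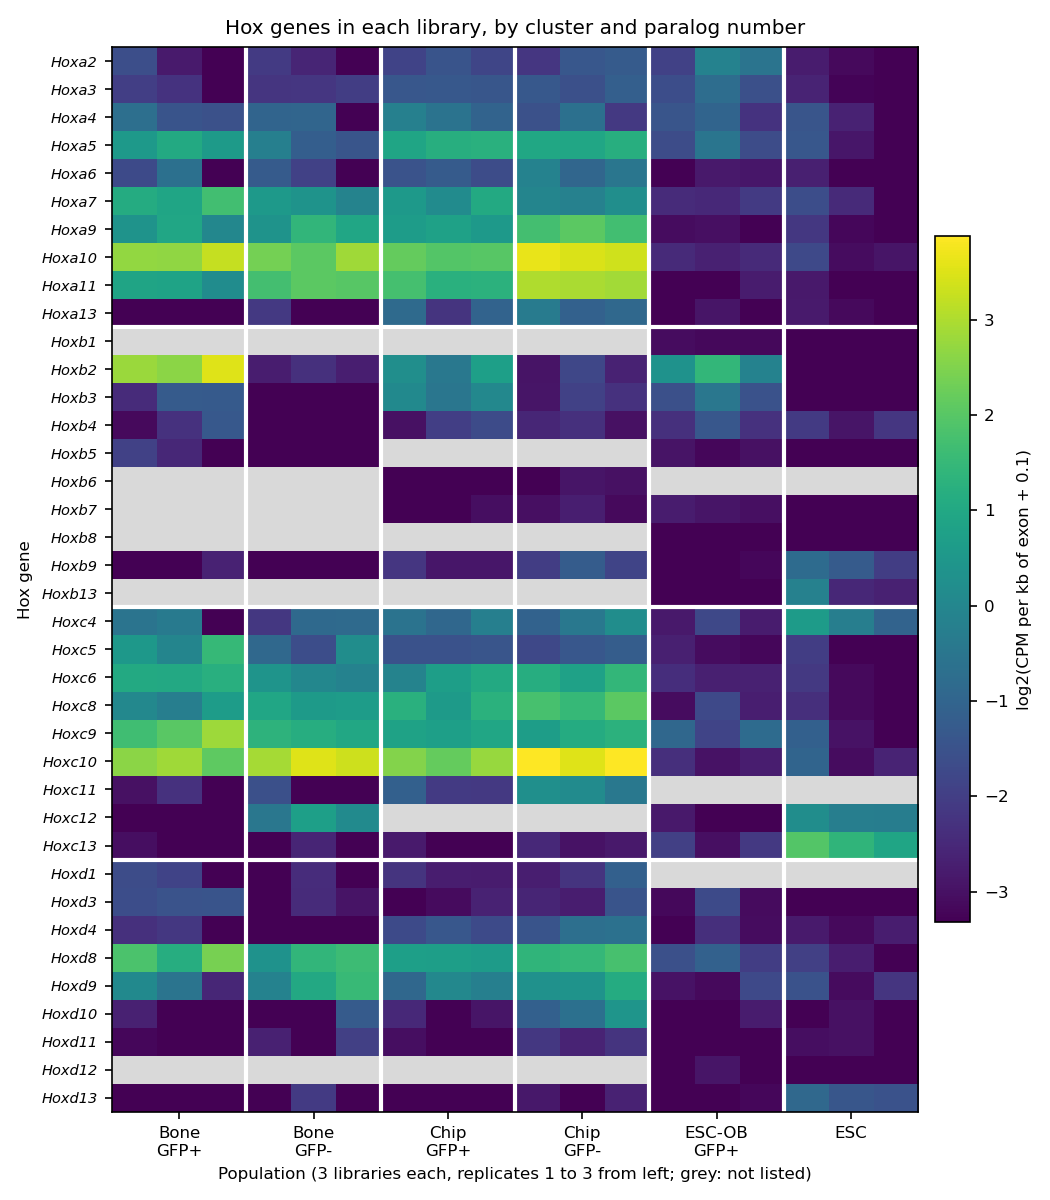
Level of Hox genes in each of the 18 libraries, as log2 of CPM per kb of exon plus 0.1, with genes ordered by cluster and paralog number down the page and grey for a gene not listed in that table. Hoxa10, Hoxa11 and Hoxc10 are bright in all bone and chip libraries, and Hoxb2 is bright in bone GFP+ and dark in bone GFP-.

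In bone GFP+ osteoblasts the leading gene per kb of exon was Hoxb2, a cluster B gene of the hindbrain and anterior trunk. It averaged 8.11 ± 2.90 CPM per kb (SD, n = 3), followed by Hoxa10 at 7.33 ± 1.70, Hoxc10 at 5.73 ± 1.48, Hoxc9 at 4.68 ± 2.09 and Hoxd8 at 3.59 ± 1.54. The ranges of neighbours in this order overlapped. In bone GFP- cells Hoxc10, a gene of the lumbar spine and hindlimb in mice, led at 9.57 ± 2.06 CPM per kb, above the whole range of Hoxa10 (5.42 ± 1.56), which overlapped Hoxa11 (3.73 ± 0.45). Hoxd8 (2.23 ± 0.94) and Hoxc9 (2.16 ± 0.28) came next and overlapped each other.

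Chip GFP+ osteoblasts had the order Hoxc10 at 5.62 ± 1.16 CPM per kb, Hoxa10 at 4.02 ± 0.33, Hoxa11 at 2.64 ± 0.57, Hoxa5 at 2.09 ± 0.27 and Hoxc8 at 2.01 ± 0.50, with the first 3 ranges apart from one another and the last 3 overlapping. Chip GFP- cells gave Hoxc10 at 13.5 ± 1.77, Hoxa10 at 11.2 ± 1.21, Hoxa11 at 7.65 ± 0.36, Hoxa9 at 3.48 ± 0.53 and Hoxc8 at 3.39 ± 0.69 CPM per kb, with overlap between Hoxc10 and Hoxa10 and between Hoxa9 and Hoxc8. Hoxa10, Hoxa11 and their relatives of the same numbers pattern the upper and middle segments of the limb, and Hoxc10, Hoxa10 and Hoxa11 were the 3 leading genes in bone GFP-, chip GFP+ and chip GFP-.

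ESC-OB carried low levels led by anterior genes. Hoxb2 averaged 1.54 ± 0.97 CPM per kb, Hoxa2 (which gives the second pharyngeal arch skeleton its identity) 0.518 ± 0.331, Hoxb3 0.370 ± 0.218 and Hoxc9 0.363 ± 0.159, with overlapping ranges from each to the next. In ESC the leading gene was Hoxc13, which acts in hair follicles and nails, at 2.68 ± 0.98 CPM per kb and above the range of Hoxc4 (0.861 ± 0.541). Hoxc12 (0.842 ± 0.188) overlapped Hoxc4, and Hoxd13 (0.324 ± 0.101), a gene of the digits, lay below the range of Hoxc12. The ESC libraries held only 69 to 378 Hox counts each.

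The share of the summed Hox level per kb that came from each paralog class does not depend on the scaling factors, since it is a ratio within a library. Paralogs 9 to 13 gave 48.5%, 54.0% and 44.0% of the Hox level in the 3 bone GFP+ libraries, against 72.6%, 77.4% and 77.8% in bone GFP-. In chips they gave 58.4%, 55.5% and 52.8% in GFP+, against 76.0%, 74.6% and 70.1% in GFP-. The ranges did not overlap in either source, and GFP+ cells had the lower share of this class in each. In ESC-OB the same class gave 19.4%, 4.83% and 24.5%, against 61.5%, 75.6% and 82.7% in ESC, again without overlap.

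Paralogs 1 to 3 showed the reverse order. Their share averaged 20.5 ± 2.78% in bone GFP+ and 1.23 ± 0.23% in bone GFP-, 9.58 ± 1.38% in chip GFP+ and 2.43 ± 0.60% in chip GFP-, and 57.2 ± 7.38% in ESC-OB and 7.71 ± 6.64% in ESC (SD, n = 3 each). Most of that class in bone and chip GFP+ cells was cluster B. That cluster gave 16.5% to 23.6% of the Hox level in bone GFP+ and 0.139% to 0.273% in bone GFP-. In chips it gave 5.36% to 8.34% in GFP+ and 0.533% to 1.63% in GFP-. Paralog number 2 alone, with Hoxb2 at 8.11 and Hoxa2 at 0.092 CPM per kb, gave 17.5%, 15.4% and 22.3% in bone GFP+. Not every gene of the class shared its order. In chips Hoxb2 and Hoxb3 were higher in GFP+. Hoxa2, Hoxa3 and Hoxd3 averaged 0.206, 0.289 and 0.025 CPM per kb in chip GFP+, against 0.242, 0.295 and 0.127 in chip GFP-. The mean paralog number, weighted by level per kb, was 7.17 in bone GFP+ and 9.19 in bone GFP-, 7.96 in chip GFP+ and 9.05 in chip GFP-, and 4.28 in ESC-OB and 9.94 in ESC.

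**Figure D2:**
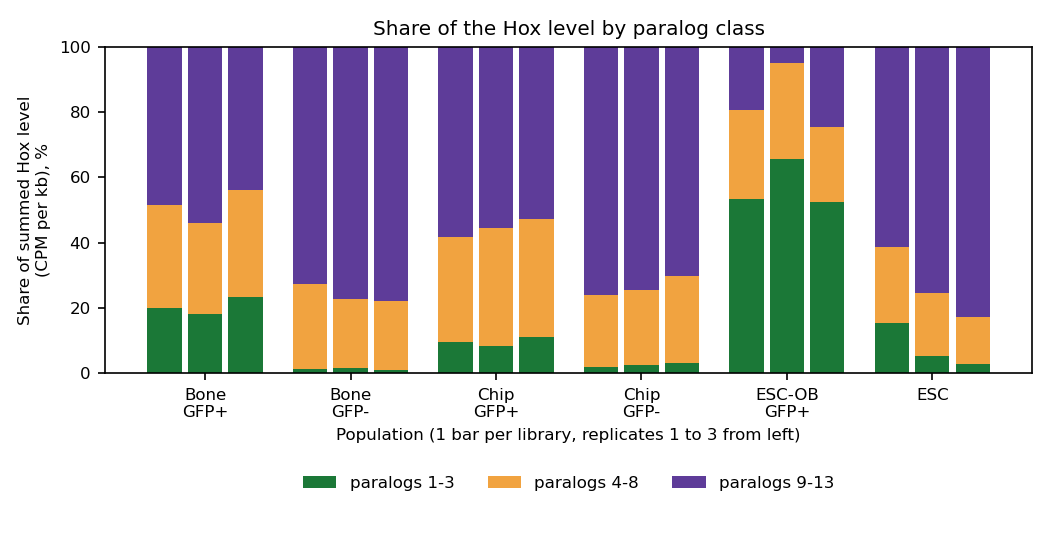
Share of the summed Hox level (CPM per kb of exon, in percent) from paralogs 1 to 3, 4 to 8 and 9 to 13, with 1 stacked bar per library. Paralogs 9 to 13 take 44.0% to 54.0% in bone GFP+ against 72.6% to 77.8% in bone GFP-, and paralogs 1 to 3 take 52.4% to 65.7% in ESC-OB.

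The first comparison asked which Hox genes set GFP+ osteoblasts of fresh long bone apart from the GFP- cells beside them. Hoxb2 was far higher in GFP+ cells and the posterior genes Hoxa11 and Hoxc10 were lower, while Hoxa10 did not pass the test. Of the 39 members, 15 had counts enough to be tested. Called at an adjusted p under 0.05 were 1 higher and 2 lower in GFP+, where 19.5% of all 12559 genes tested were higher and 22.1% lower. The median log2 fold change of the tested members was 0.30, against 0 over all genes.

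Hoxb2 stood at 22.5, 20.1 and 37.8 CPM in bone GFP+, against 0.16, 0.33 and 0.17 CPM in bone GFP-. All 3 GFP+ libraries lay above the GFP- libraries, with 1115 counts in GFP+ and 4 counts in GFP-. The log2 fold change was 6.72 ± 0.49 (SE; edgeR adjusted p = 7.16e-06). Its neighbours in cluster B had counts too low for the test. Hoxb3 had 5, 9 and 12 counts in the GFP+ libraries against 0 in GFP-, at least 3.79-fold higher against a floor of 3 counts over the group, and Hoxb4 had 1, 4 and 16 against 0, at least 3.06-fold higher and at least 1.05-fold without GFP+ replicate 3. The posterior gene Hoxc12 had 0 counts in GFP+ and 4, 10 and 6 in the GFP- libraries, at least 15.3-fold lower. Such a bound also loosens when a library of the group at 0 is left out, to 2.49 and 2.01 for Hoxb3 and Hoxb4 without GFP- replicate 1 and to 8.17 for Hoxc12 without GFP+ replicate 1. Floors and counting intervals cover counting error only.

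Hoxa11, which patterns the bones of the forearm and shin in mice, stood at 4.69, 4.55 and 2.79 CPM in GFP+, against 8.65, 11.0 and 10.5 CPM in GFP-. The groups did not overlap, and the log2 fold change was -1.46 ± 0.37 (edgeR adjusted p = 0.011). Hoxc10 stood at 11.5, 13.4 and 7.89 CPM in GFP+, against 14.1, 21.9 and 18.8 CPM in GFP-, a log2 fold change of -0.88 ± 0.30 (edgeR adjusted p = 0.0408). With bone GFP+ replicate 2 alone, the library that carries Y-linked transcripts as the GFP- libraries do, Hoxb2 kept its call (6.33, adjusted p = 2.67e-05) and neither Hoxa11 (-1.22, adjusted p = 0.0847) nor Hoxc10 (-0.53, adjusted p = 0.331) passed. Hoxc10 also missed it without GFP+ replicate 1 or 3 or without GFP- replicate 2 or 3 (adjusted p = 0.067 to 0.148), which left 1 member lower.

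Hoxa10 stood at 24.7, 24.0 and 35.7 CPM in bone GFP+, against 19.5, 15.5 and 27.3 CPM in bone GFP-. The groups overlapped and the log2 fold change was 0.30 ± 0.26 (edgeR adjusted p = 0.39), turning to -0.73 (adjusted p = 0.0242) where library totals were used without scaling factors. Hoxc6, a gene of the thorax, gave 0.92 ± 0.43 (adjusted p = 0.118) and -0.14 without scaling factors. Other members that did not pass the test had estimates on both sides of 0, among them Hoxa5 at 1.62 ± 0.61 (adjusted p = 0.0586), Hoxc9 at 0.98 ± 0.39 (0.0727), Hoxa7 at 0.89 ± 0.43 (0.127), Hoxc8 at -0.72 ± 0.49 (0.273) and Hoxa9 at -0.64 ± 0.46 (0.295). Chondrocyte markers moved with the sort: the summed level of the 17 listed of 19 markers was 26740 to 31390 CPM in bone GFP+ against 171200 to 341700 CPM in bone GFP-, 15 of 17 tested were lower in GFP+, and none was at 0 in either group. Their part in the Hox differences was not tested.

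Bone chip cultures posed the same question for cells grown out of bone. Here the posterior genes Hoxa9, Hoxa10, Hoxa11, Hoxc10, Hoxc11 and Hoxd10 were lower in GFP+ osteoblasts and the cluster B genes Hoxb2 and Hoxb3 were higher. Of 20 members tested, 2 were higher and 9 lower in GFP+, where 20.4% of 12841 genes were higher and 23.1% lower. The median log2 fold change of the members was -0.68, against -0.04 over all genes. In the class of paralogs 9 to 13, 6 of 9 tested were lower. In that of paralogs 1 to 3, 2 of 4 tested were higher.

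Hoxb2 stood at 3.55, 2.10 and 5.18 CPM in chip GFP+, against 0.096, 0.63 and 0.21 CPM in chip GFP-. Hoxb3, which like Hoxb2 acts in the hindbrain, stood at 2.92, 1.82 and 2.81 CPM in GFP+, against 0.096, 0.49 and 0.31 CPM in GFP-. Neither gene's groups overlapped. The log2 fold changes were 3.47 ± 0.60 for Hoxb2 and 2.97 ± 0.45 for Hoxb3 (edgeR adjusted p = 0.00348 and 0.00204).

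Hoxa10 stood at 16.8, 14.3 and 15.1 CPM in chip GFP+, against 47.8, 41.9 and 38.7 CPM in chip GFP-. That was a log2 fold change of -1.47 ± 0.11 (edgeR adjusted p = 0.000122) with no overlap. Hoxa11 stood at 8.88, 6.11 and 6.32 CPM in GFP+, against 21.4, 20.8 and 19.5 CPM in GFP-, a log2 fold change of -1.53 ± 0.16 (adjusted p = 0.000449). Hoxc10 stood at 11.0, 8.39 and 12.8 CPM in GFP+, against 27.8, 21.9 and 27.6 CPM in GFP-, and fell by 1.26 ± 0.18 on the log2 scale (adjusted p = 0.00156).

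The 3 genes kept these calls in every alternative processing that was run, and in each the GFP+ libraries all lay below the GFP- libraries. Hoxa9 stood at 5.12, 5.75 and 4.74 CPM in GFP+, against 11.2, 14.3 and 11.0 CPM in GFP- (log2 fold change -1.22 ± 0.16, edgeR adjusted p = 0.00119). Hoxc11 stood at 0.73, 0.27 and 0.26 CPM in GFP+, against 2.22, 2.03 and 1.28 CPM in GFP- (-2.11 ± 0.46, adjusted p = 0.00961). In the fit of all 18 libraries Hoxa9 missed the threshold (0.0656).

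Hoxd10, which like the other paralogs of its number acts in the hindlimb and lumbar cord, had few counts in GFP+ chip cells. It had 2, 0 and 1 counts in the GFP+ libraries and 10, 20 and 65 in the GFP- libraries, a pooled ratio of 0.0436 with a 95% counting interval of 0.00884 to 0.132 (exact binomial). The ratio was 0.0772 without GFP- replicate 3, 0.0208 without GFP+ replicate 1 and 0.0665 without GFP+ replicate 2. Its log2 fold change was -4.24 ± 0.84 (edgeR adjusted p = 0.00655), and -5.17 to -3.49 over the alternatives. The trunk genes Hoxd8 (-0.91 ± 0.17, adjusted p = 0.00472), Hoxa6 (-1.17 ± 0.37, 0.0384) and Hoxc8 (-0.75 ± 0.25, 0.0443) were also lower. The chip values above are from fits that did not pair the libraries. With the replicate block, which applies here since same-numbered chip libraries deviated together, Hoxa6 missed the threshold (adjusted p = 0.0673). The counts stayed at 2 higher and 9 lower. Hoxa6 and Hoxc8 both missed it without GFP- replicate 1 or 3 or without any 1 of the GFP+ libraries (adjusted p = 0.0587 to 0.145). By DESeq2 both missed it as well (adjusted p = 0.167 for Hoxa6 and 0.0581 for Hoxc8). In the fit of all 18 libraries Hoxa6 (0.366), Hoxc8 (0.326) and Hoxd8 (0.146) missed it. Hoxa6 further missed it with no filter (0.0508), and Hoxc8 with RLE factors (0.0519) and with libraries thinned (0.141).

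Among the members that did not pass the test in chips, Hoxa5 gave a log2 fold change of 0.10 ± 0.19, Hoxc9 -0.22 ± 0.21 and Hoxa3 -0.03 ± 0.23 (edgeR adjusted p = 0.7, 0.416 and 0.928). Of the progenitor and fibroblast markers, 9 of 9 tested were lower in chip GFP+, with a summed level of the 11 listed of 415 to 504 CPM in GFP+ against 1188 to 1866 CPM in GFP- and none at 0. Myeloid markers set chip GFP- replicate 2 apart, the library with the highest Hoxb2 and Hoxb3 of its group: the summed level of the 9 listed was 528 to 862 CPM in GFP+ against 371, 480 and 4184 CPM in GFP-, Lyz2 standing at 345, 2895 and 257 CPM in GFP- replicates 1, 2 and 3. Of these markers S100a8 was at 0 in GFP+. The part of either list in the Hox differences was not tested. With every library thinned to 4920977 counts, 11 members had counts enough to be tested, Hoxb2 and Hoxb3 not among them, and 5 were lower.

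**Figure D3:**
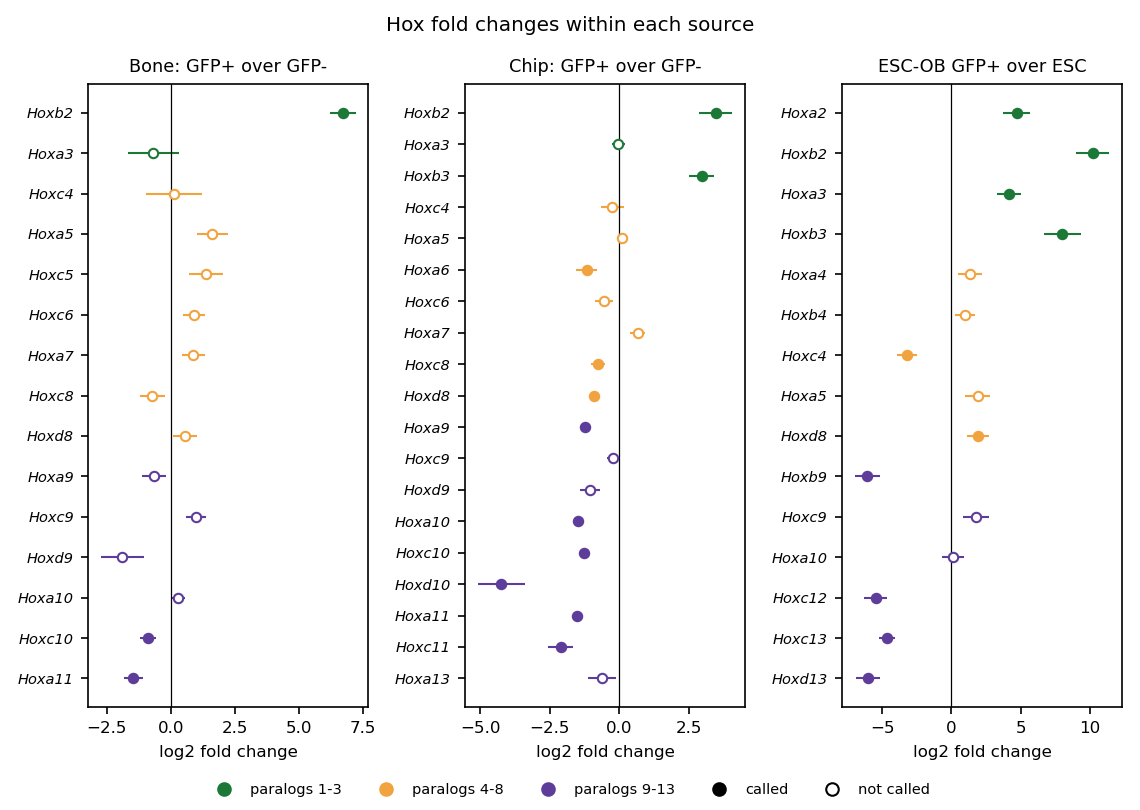
Log2 fold change (± SE) of tested Hox genes in GFP+ over GFP- bone cells, GFP+ over GFP- chip cells, and ESC-OB over ESC, with paralog numbers rising down the page, filled points for genes called at an adjusted p under 0.05 and open points for the others. Hoxb2 is at the right of all 3 panels at 6.72, 3.47 and 10.19, the last a fit against 0 counts, and filled points of paralogs 9 to 13 lie left of 0.

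Whether the GFP+ effect itself differed between bone and chips was tested as an interaction over the 12 libraries. Of 21 members tested, 3 had a larger log2 effect in bone than in chips and 0 a smaller one, where 14.7% of 13574 genes were larger and 15.6% smaller. At an unadjusted p under 0.05, 6 members were larger and 0 smaller by edgeR, and DESeq2 called 6 larger and 0 smaller after adjustment. Hoxa10 fell by 1.47 in chips and gave 0.30, short of the threshold, in bone, and its bone effect minus its chip effect was 1.77 ± 0.30 (edgeR adjusted p = 0.000754). Hoxb2 gave 3.25 ± 0.93 (adjusted p = 0.0189) and Hoxc6 1.49 ± 0.50 (adjusted p = 0.0415). Hoxa11, lower in GFP+ cells of both sources, gave 0.07 ± 0.35 (adjusted p = 0.9). Without chip GFP- replicate 2 the Hoxb2 difference missed the threshold (adjusted p = 0.112), as it did against bone GFP+ replicate 2 alone (0.0591) and with libraries thinned (0.21). That of Hoxc6 missed it with the replicate block (0.0576), with bone GFP+ replicate 2 alone (0.105) and without any 1 library (0.0565 to 0.093) except bone GFP+ replicate 3, bone GFP- replicate 1, chip GFP+ replicate 3 or chip GFP- replicate 2.

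In the stem cell model the question was which Hox genes a pluripotent culture gains when it makes GFP+ osteoblasts. Hoxb2, Hoxb3, Hoxa2, Hoxa3 and Hoxd8 were higher in ESC-OB, and Hoxc13, Hoxc12, Hoxd13, Hoxb9 and Hoxc4 were lower. Of 16 members tested, 5 were higher and 5 lower in ESC-OB, where 43.0% of 15417 genes were higher and 34.7% lower. The median log2 fold change of the members was 1.16, against 0.22 over all genes. In the class of paralogs 1 to 3, 4 of 5 tested were higher. In that of paralogs 9 to 13, 4 of 6 tested were lower.

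Hoxb2 stood at 3.84, 8.70 and 2.68 CPM in ESC-OB, against 0 counts in all 3 ESC libraries. That is at least 76.7-fold higher against a floor of 3 counts over the ESC group (edgeR adjusted p = 5.57e-05). Hoxb3 stood at 0.72, 1.87 and 0.75 CPM in ESC-OB, against 0 counts in ESC, at least 16.7-fold higher (adjusted p = 0.00054). Every ESC-OB library lay above the ESC libraries for both genes, and without the deep ESC replicate 2 the bounds are 27.8-fold for Hoxb2 and 6.05-fold for Hoxb3.

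Hoxa3, a gene of the pharyngeal arches and thymus, stood at 1.52, 3.40 and 1.64 CPM in ESC-OB, against 0.44, 0.033 and 0 CPM in ESC (log2 fold change 4.14 ± 0.87, edgeR adjusted p = 0.00118). Hoxa2 stood at 0.39, 1.98 and 1.40 CPM in ESC-OB, against 0.11, 0.033 and 0 CPM in ESC (4.72 ± 0.98, adjusted p = 0.00111). The counts of Hoxa2 were 149 and 2, a ratio of 27.9 with a 95% counting interval of 7.58 to 232. Hoxa2 and Hoxa3 overlap in exonic sequence over 267 bases, so some of their reads may be shared. Hoxd8 was higher by 1.92 ± 0.77 (adjusted p = 0.0404) with overlapping groups, a call lost without ESC-OB replicate 1 or 2 or ESC replicate 2 or 3 (0.0594 to 0.216). Hoxd3 was below the filter at 3, 43 and 4 counts in the ESC-OB libraries against 0 in ESC, at least 6.24-fold higher, a bound of 1.23-fold without ESC-OB replicate 2 and of 2.26-fold without ESC replicate 2. It shares 831 identical bases with its neighbour Hoxd4.

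Among the genes that were lower in ESC-OB, Hoxc13 stood at 0.39, 0.055 and 0.31 CPM in ESC-OB, against 9.17, 6.22 and 4.38 CPM in ESC. The log2 fold change was -4.65 ± 0.57 (edgeR adjusted p = 2.56e-05). Hoxc4, an anterior gene of cluster C, stood at 0.10, 0.49 and 0.12 CPM in ESC-OB, against 3.71, 1.89 and 1.00 CPM in ESC (-3.23 ± 0.71, adjusted p = 0.00158). Neither gene's groups overlapped.

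Hoxb9, Hoxd13 and Hoxc12 were lower, at 1, 1 and 2 counts in ESC-OB, against 39, 36 and 39 counts in ESC. The pooled ratios were 0.0096 (95% counting interval 0.000237 to 0.0567), 0.0104 (0.000256 to 0.0617) and 0.0192 (0.00225 to 0.0741). Hoxb13, which marks the tail end of the embryo, was below the filter at 0 counts in ESC-OB against 16, 5 and 1 in the ESC libraries, at least 19.6-fold lower in ESC-OB and at least 6.63-fold without ESC replicate 1 or 12.1-fold without ESC-OB replicate 1. Hoxa10 overlapped between the groups, at 0.31, 0.22 and 0.31 CPM in ESC-OB, against 0.76, 0.066 and 0.13 CPM in ESC (log2 fold change 0.10 ± 0.81, edgeR adjusted p = 0.916). Markers of other lineages were also present in ESC-OB: stratified epithelium at 2243 to 4331 CPM against 256 to 344 CPM in ESC for all 11 genes, with none at 0 in ESC-OB, and early endoderm and liver at 502 to 651 CPM against 3.76 to 4.59 CPM for 12 genes. Their part in the Hox levels was not tested.

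**Figure D4:**
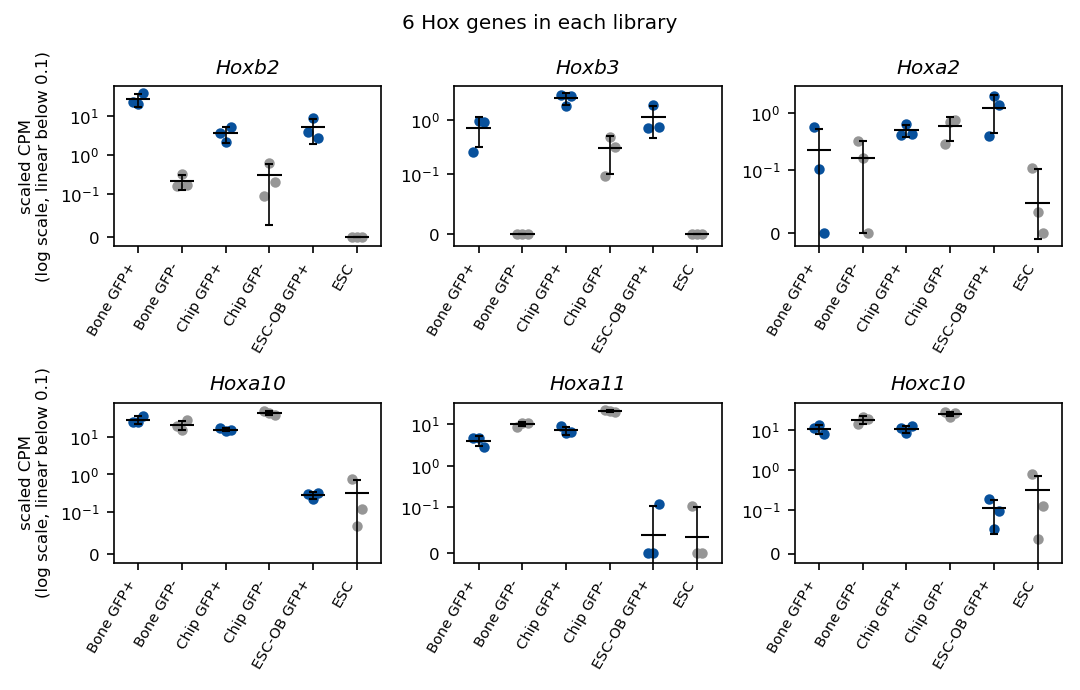
CPM of 6 Hox genes in every library, on a log axis that is linear below 0.1, with points for libraries, a bar for the mean and whiskers for the SD (n = 3), GFP+ populations in blue and the others in grey. Hoxb2 is higher in each GFP+ population than in its partner, while Hoxa10, Hoxa11 and Hoxc10 lie below 1 CPM in ESC-OB and ESC and above 2 CPM in every bone and chip library.

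How far ESC-OB resembled osteoblasts of bone in positional identity was compared across sources on the genes listed in all 3 tables. Source, preparation and any batch cannot be told apart in these comparisons, and those against bone GFP+ share the bone GFP+ libraries. Hoxa9, Hoxa10, Hoxa11 and Hoxc10 were lower in ESC-OB than in osteoblasts of bone and chips, and Hoxa2, Hoxa3 and Hoxc13 were higher than in bone GFP+. Of 28 members tested, 3 were higher and 15 lower in ESC-OB than in bone GFP+, where 30.7% of 14777 genes were higher and 27.8% lower. Against chip GFP+, 1 was higher and 17 lower, where 34.1% of genes were higher and 28.6% lower. The median log2 fold change of the members was -2.17 against bone GFP+ and -2.59 against chip GFP+, beside 0.08 and 0.14 over all genes.

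Against both bone GFP+ and chip GFP+, the 4 largest falls among the members were in Hoxa9, Hoxa10, Hoxa11 and Hoxc10. Hoxa10 stood at 0.31, 0.22 and 0.31 CPM in ESC-OB, against 24.7, 24.0 and 35.7 CPM in bone GFP+, a log2 fold change of -6.60 ± 0.39 (edgeR adjusted p = 3.43e-10). Against chip GFP+ it was -5.73 ± 0.39 (adjusted p = 1.56e-09). Hoxc10 stood at 0.18, 0.055 and 0.096 CPM in ESC-OB, and its log2 fold changes were -6.46 ± 0.52 against bone GFP+ and -6.43 ± 0.52 against chip GFP+ (adjusted p = 1.12e-08 and 1.3e-08).

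Hoxa11 had 5 counts in ESC-OB, against 170 in bone GFP+ and 224 in chip GFP+ (log2 fold changes -6.42 ± 0.61 and -7.24 ± 0.61, edgeR adjusted p = 8.84e-08 and 2.13e-08). Hoxa9 had 6 counts in ESC-OB, against 182 in bone GFP+ and 166 in chip GFP+ (-6.37 ± 0.67 and -6.57 ± 0.67, adjusted p = 3.03e-07 and 2.23e-07). For all 4 genes no ESC-OB library reached the lowest bone or chip GFP+ library. These calls held without the scaling factors, where the Hoxa10 change against bone GFP+ was -4.57 (adjusted p = 4.76e-09).

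Trunk genes of the middle class were lower as well. Hoxc5 stood at 0.16, 0.055 and 0.024 CPM in ESC-OB, against 3.91, 2.54 and 7.97 CPM in bone GFP+ (log2 fold change -5.72 ± 0.88, edgeR adjusted p = 2.58e-05). Hoxc6 stood at 0.23, 0.14 and 0.14 CPM in ESC-OB, against 4.89, 4.87 and 5.57 CPM in bone GFP+ (-4.84 ± 0.53, adjusted p = 5.03e-07). Against chip GFP+, Hoxc8 gave -4.47 ± 0.63 (adjusted p = 8.52e-06) and Hoxc6 -4.35 ± 0.53 (adjusted p = 1.66e-06). In the class of paralogs 4 to 8, 8 of 11 tested were lower against bone GFP+ and 9 of 11 against chip GFP+. In that of paralogs 9 to 13 the counts were 6 of 12 and 8 of 12.

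Anterior genes did not share this pattern as a class, though single genes did. In the class of paralogs 1 to 3, 5 genes were tested, of which 2 were higher and 1 lower in ESC-OB than in bone GFP+. Against chip GFP+, 0 of the 5 were higher and 0 lower. The anterior gene Hoxd3 was below the filter. It stood at 0.062, 1.18 and 0.096 CPM in ESC-OB, below its 1.29, 1.48 and 1.55 CPM in bone GFP+. In chip GFP+ it stood at 0, 0.091 and 0.35 CPM, which overlapped ESC-OB. Hoxa3 stood at 1.52, 3.40 and 1.64 CPM in ESC-OB, against 1.03, 0.74 and 0 CPM in bone GFP+ (log2 fold change 1.84 ± 0.74, edgeR adjusted p = 0.0408). Hoxa2 gave 2.26 ± 0.82 against bone GFP+ (adjusted p = 0.025) with overlapping groups. Both calls were lost without ESC-OB replicate 2, bone GFP+ replicate 2 or bone GFP+ replicate 3 (adjusted p = 0.061 to 0.145), and that of Hoxa2 without ESC-OB replicate 3 (0.0521). A fit against bone GFP+ replicate 2 alone does not match the groups here, since the ESC-OB libraries lack the Y-linked transcripts of that replicate. The number of members higher was 0 without bone GFP+ replicate 2 or 3 and 1 without ESC-OB replicate 2.

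Hoxb2 was lower in ESC-OB than in bone GFP+ by a log2 fold change of -2.40 ± 0.47 (edgeR adjusted p = 0.000432), which became -0.37 (adjusted p = 0.47) without scaling factors. Against chip GFP+ it gave 0.49 ± 0.48 (adjusted p = 0.391), at 3.84, 8.70 and 2.68 CPM in ESC-OB against 3.55, 2.10 and 5.18 CPM in chip GFP+ with overlapping groups. Hoxc13 was the single member of paralogs 9 to 13 that was higher, from 34 counts in ESC-OB against 1 count in bone GFP+ and 1 count in chip GFP+ (pooled ratios 11.2 and 8.58, 95% counting intervals 1.88 to 456 and 1.44 to 349). Its call against chip GFP+ was lost by DESeq2 (adjusted p = 0.055) and against both when libraries were thinned (0.209 against bone GFP+ and 0.555 against chip GFP+). It was lost against bone GFP+ without ESC-OB replicate 1 or bone GFP+ replicate 2 or 3 (0.0534 to 0.0641). Against chip GFP+ the call was lost without ESC-OB replicate 1 or 3 or chip GFP+ replicate 2 or 3 (0.0839 to 0.14). Mature osteoblast markers were also lower in ESC-OB, 11 of 12 against bone GFP+ and 12 of 12 against chip GFP+. Their summed level was 3468 to 9883 CPM in ESC-OB and 342500 to 418000 CPM in chip GFP+. In bone GFP+ it was 1360000 to 1425000 CPM, which passes 1000000 because the scaling factors there are below 1. The part of these markers in the Hox differences was not tested.

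**Figure D5:**
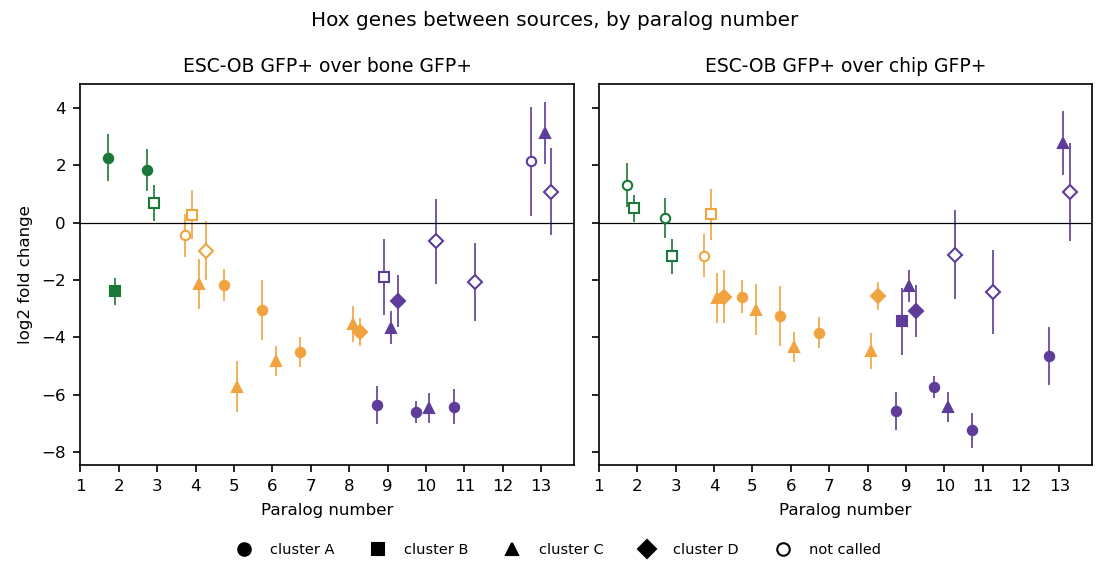
Log2 fold change (± SE) of tested Hox genes in ESC-OB over bone GFP+ and in ESC-OB over chip GFP+, by paralog number, with a marker shape per cluster and open markers for genes not called. Genes with paralog numbers 5 to 10 lie mostly below 0, with Hoxa10 at -6.60 and -5.73, while those numbered 2 or 3 lie near or above 0 apart from Hoxb2 at -2.40 against bone GFP+ and Hoxb3 at -1.18 against chip GFP+.

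Culture of bone chips was set against fresh bone within each sorted fraction. Among GFP+ osteoblasts, 2 of 28 members tested were higher and 5 lower in chips, where 29.2% of genes were higher and 29.9% lower. Hoxb2 stood at 3.55, 2.10 and 5.18 CPM in chip GFP+, against 22.5, 20.1 and 37.8 CPM in bone GFP+, a log2 fold change of -2.89 ± 0.50 (edgeR adjusted p = 0.000126). Its neighbour Hoxb3 ran the other way, at 2.92, 1.82 and 2.81 CPM in chip GFP+, against 0.26, 0.95 and 0.93 CPM in bone GFP+ (1.86 ± 0.65, adjusted p = 0.0241). The groups did not overlap for either gene, and the Hoxb3 call was lost without chip GFP+ replicate 1 or 3 or bone GFP+ replicate 1 (0.0621 to 0.0878).

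Hoxa13 had 25 counts in chip GFP+ and 0 in bone GFP+, at least 10.9-fold higher and 5.84-fold without bone GFP+ replicate 1 (edgeR adjusted p = 0.0016). Lower in chips were Hoxc5 (log2 fold change -2.67 ± 0.78, adjusted p = 0.00685), Hoxc9 (-1.47 ± 0.53, 0.0247), Hoxd8 (-1.25 ± 0.45, 0.0229) and Hoxa10 (-0.87 ± 0.30, 0.0176). Against bone GFP+ replicate 2 alone, the log2 fold change of Hoxb2 was -2.44. That replicate holds Y-linked transcripts that the chip libraries lack, so this fit does not match the groups. Without scaling factors Hoxa10 gave -0.09 (adjusted p = 0.812). Hoxc9 and Hoxd8 missed the threshold without any 1 of the chip GFP+ libraries or without bone GFP+ replicate 3 (0.0558 to 0.106), and Hoxa10 without chip GFP+ replicate 2 (0.0608) or bone GFP+ replicate 3 (0.0679). The number lower was 2 without bone GFP+ replicate 3 or chip GFP+ replicate 2 and 3 without chip GFP+ replicate 1, and the number higher was 1 without chip GFP+ replicate 1 or 3.

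Among GFP- cells, 9 of 28 members tested were higher in chips and 0 lower, where 31.6% of genes were higher and 29.2% lower. Every bone GFP- library held the Y-linked transcript Ddx3y, which was all but absent from every chip library. That difference cannot be told apart from the source. At an unadjusted p under 0.05, 9 members were higher and 0 lower by edgeR, and DESeq2 gave 9 higher and 0 lower after adjustment. Hoxa10 stood at 47.8, 41.9 and 38.7 CPM in chip GFP-, against 19.5, 15.5 and 27.3 CPM in bone GFP- (log2 fold change 1.04 ± 0.30, edgeR adjusted p = 0.00586). Hoxa5, a gene of the neck, thorax and lung, stood at 3.47, 3.43 and 4.11 CPM in chip GFP-, against 1.44, 0.65 and 0.51 CPM in bone GFP- (2.07 ± 0.63, adjusted p = 0.00877). Groups did not overlap for either.

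Hoxd4 had 53 counts in chip GFP- and 0 in bone GFP-, at least 7.31-fold higher and 4.81-fold without bone GFP- replicate 1 (edgeR adjusted p = 0.00429), with the 831 bases shared with Hoxd3. Hoxa13 had 52 and 2 counts (pooled ratio 10.8, 95% counting interval 2.83 to 91.2), and Hoxd10 had 95 and 5 (7.86, 3.25 to 24.8). Without chip GFP- replicate 3 the Hoxd10 ratio was 4.44, and without bone GFP- replicate 2 that of Hoxa13 was 7.15. Hoxa11 (1.03 ± 0.41, adjusted p = 0.0359) and Hoxc6 (1.13 ± 0.47, 0.0448) were higher as well, as were Hoxb9 and Hoxb3 from 25 and 14 counts against 0. Several of these calls were lost when 1 library was left out. Hoxa11 missed the threshold without any 1 of the 6 libraries (0.0629 to 0.102), while its log2 fold change stayed between 0.94 and 1.16 over all alternatives, Hoxc6 without any but chip GFP- replicate 2 (0.0511 to 0.14), and Hoxb3 without chip GFP- replicate 2 or any 1 bone GFP- library (0.0556 to 0.0645). Hoxa13 missed it without bone GFP- replicate 2 or 3 (0.0605 to 0.0638), and Hoxd10 without chip GFP- replicate 3 or bone GFP- replicate 1 or 2 (0.142 to 0.175). The number higher was 5, 4 and 5 without bone GFP- replicates 1, 2 and 3. Chondrocyte markers were lower in chip GFP- (7441 to 12380 CPM, against 171200 to 341700 CPM in bone GFP-, 15 of 17 tested), and their part in the Hox differences was not tested.

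Genes that work with or on the clusters were counted as lists. Over all genes tested, 19.5% were higher and 22.1% lower in bone GFP+ than in bone GFP-. The shares were 20.4% and 23.1% in chips, and 43.0% and 34.7% in ESC-OB over ESC. A list count near these shares is not a result about that list. Of the 9 Pbx, Meis and Pknox genes, whose proteins bind DNA together with Hox proteins, 2 were higher and 1 lower of 8 tested in bone GFP+, 1 higher and 3 lower of 8 in chip GFP+, and, among 9 tested in ESC-OB against ESC, 5 higher and 2 lower. Meis3 averaged 74.8 CPM in bone GFP+ and 9.19 CPM in bone GFP- (log2 fold change 2.89 ± 0.36, edgeR adjusted p = 0.000222), with Meis1 also higher (1.98 ± 0.37, 0.00235). In chips Pbx3 averaged 6.48 CPM in GFP+ and 12.9 CPM in GFP- (-0.99 ± 0.12, adjusted p = 0.00092). In ESC-OB Meis1 averaged 34.9 CPM, against 0.24 CPM in ESC (7.08 ± 0.28, adjusted p = 1.25e-08).

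Of 14 Cdx and retinoic acid genes, which regulate the clusters in the embryo, 13 were tested in ESC-OB against ESC, with 6 higher and 3 lower, while 2 of 7 tested were lower in bone GFP+ and 5 of 8 in chip GFP+. Cyp26a1, which degrades retinoic acid, averaged 54.3 CPM in ESC-OB and 0.055 CPM in ESC (log2 fold change 8.98 ± 0.61, edgeR adjusted p = 3e-07), and the receptor gene Rarb averaged 14.6 CPM in ESC-OB and 0.14 CPM in ESC (7.01 ± 0.40, adjusted p = 9.27e-08). Cdx1, an activator of trunk Hox genes in mice, averaged 0.047 CPM in ESC-OB and 18.1 CPM in ESC (-8.44 ± 1.29, adjusted p = 0.000132). That ESC mean rests mostly on replicate 1, the ESC libraries standing at 46.3, 4.47 and 3.38 CPM.

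Of 20 Polycomb genes, whose products keep silent Hox clusters repressed, 6 were higher and 14 lower in ESC-OB than in ESC, with a list median of -1.99 against 0.22 over all genes. Ezh2 averaged 9.18 CPM in ESC-OB and 111 CPM in ESC (log2 fold change -3.61 ± 0.18, edgeR adjusted p = 3.62e-08), whereas Ezh1, its relative, averaged 55.0 CPM in ESC-OB and 19.9 CPM in ESC (1.45 ± 0.20, adjusted p = 5.36e-05). Of the 9 tested genes of Trithorax complexes and H3K27 demethylases, which act against Polycomb, 8 were lower in ESC-OB than in ESC. In bone GFP+ over GFP- the Polycomb counts were 5 higher and 1 lower of 19, and in chips 5 higher and 4 lower of 20.

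Limb genes gave an outside view of position. Tbx4 and Pitx1 mark the hindlimb and Tbx5 the forelimb in mice. Pitx1 averaged 20.2 CPM in bone GFP+ and 47.6 CPM in bone GFP- (log2 fold change -1.37 ± 0.36, edgeR adjusted p = 0.0138), and 10.8 CPM in chip GFP+ and 34.0 CPM in chip GFP- (-1.64 ± 0.13, adjusted p = 0.000139). Tbx4 averaged 1.86 CPM in chip GFP+ and 18.8 CPM in chip GFP- (-3.31 ± 0.28, adjusted p = 0.000165). In ESC-OB Tbx4 averaged 0.27 CPM, against 5.25 CPM in bone GFP+ (-4.29 ± 0.40, adjusted p = 8.01e-08), and the Pitx1 difference was -0.53 ± 0.35 (adjusted p = 0.204). Tbx5 ran the other way, at 1.14 CPM in ESC-OB and 0.43 CPM in bone GFP+ (1.38 ± 0.50, adjusted p = 0.0263), and averaged 0.65 CPM in chip GFP+ and 3.92 CPM in chip GFP- (-2.56 ± 0.26, 0.000384).

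Of 17 noncoding genes of the clusters looked for, 5 were listed in each table. Hoxa11os, the antisense partner of Hoxa11, averaged 3.41 CPM in chip GFP+ and 8.83 CPM in chip GFP- (log2 fold change -1.36 ± 0.20, edgeR adjusted p = 0.00165), beside -1.53 for Hoxa11. It averaged 2.79 CPM in bone GFP+ and 5.45 CPM in bone GFP- (-1.10 ± 0.48, adjusted p = 0.0975), and was at 0 counts in all ESC-OB libraries. Since the library kit does not mark strand, the same reads may have fed the values of Hoxa11 and of its antisense partner.

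Not every member was listed in each table. Hoxb1, Hoxb6, Hoxb7, Hoxb8, Hoxb13 and Hoxd12 were not listed in the bone table, and Hoxb1, Hoxb5, Hoxb8, Hoxb13, Hoxc12 and Hoxd12 were not listed in the chip table, both of which list only genes with a total of at least 2 counts. Hoxb6, Hoxc11 and Hoxd1 were not listed in the ESC table, which also lists genes at 0 counts. Their absence there is therefore no measure of their level. In the summed Hox levels and shares, a member not listed in a table was taken as 0. Hoxb8 had 0 counts in all ESC and ESC-OB libraries, and Hoxd1, Hoxd11 and Hoxd12 stayed below 1 CPM in every library in which they were listed. Members not tested numbered 24 in bone, 19 in chips and 23 in the ESC comparison.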

How the data were processed

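RNA-seq counts per gene were analysed for 18 libraries, 3 in each of 6 populations. Per the study's methods, the authors purified poly-A RNA, built libraries with the NEBNext Ultra II DNA kit, which does not mark strand, sequenced paired reads of 100 bases, aligned them with STAR 2.4.2a to mouse mm9 and tested RefSeq genes with DESeq2 under R 3.2.2. The deposited count values are whole and not normalized, in 1 table per source; the counting tool and its treatment of shared reads are not given in the sources used here. Every column belonged to a library of the study. Some genes are included in sums, shares and counts of calls and are not reported here by name.

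Members and gene lists were chosen with earlier results of these data known. Genes were tested with edgeR 4.0.16 (quasi-likelihood, two-sided, TMM scaling, filterByExpr with a minimum count of 10) under R 4.3.3, with Benjamini-Hochberg adjustment over all genes tested and calls at an adjusted p under 0.05. Each GFP comparison was fitted on its own 6 libraries, comparisons between sources on all 18 libraries over the 15853 genes common to the 3 tables, and the difference of GFP effects on 12 libraries. The fits were tested on simulated data with 200 changed genes. Exon lengths came from GENCODE on NCBIM37, homeoboxes from that assembly and promoters from RefSeq. Counting intervals are 95% exact binomial, and a group at 0 was set to a floor of 3 counts. Python 3.11.15, pandas 2.3.3, scipy 1.17.1 and matplotlib 3.10.9 made the tables and figures.

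Named in full were, in each comparison, up to 6 called members with the largest rise and 6 with the largest fall among those at 1 CPM or more in the higher group, and the 5 members with the highest level per kb in each population, with up to 4 called genes of each other list.

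Titles number the replicates 1 to 3 in every population. In chips, GFP+ and GFP- libraries of the same number deviated together (correlations of residuals 0.158, 0.329 and 0.396), so the numbers were taken as pairs there. Alternatives were RLE factors, DESeq2 1.42.0, no filter, a filter of 1 CPM in 3 libraries, libraries thinned to 4920977 counts, a replicate block, another set of libraries in the fit, and each library left out. Chosen after seeing the data were bounds and ratios of low counts without each library, library totals without scaling factors, and bone GFP+ replicate 2 as the only bone GFP+ library, which is then assumed to vary like the other groups.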

Additional observations from a re-analysis of the deposited data

Results flagged for a closer look

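The effect of GFP sorting on 3 Hox genes differed between fresh bone and bone chips in the interaction test, in which a positive value means a larger log2 effect in bone. These were 3 of 21 members tested, a share near that over all genes, where 14.7% of 13574 had a larger effect in bone. The difference was 1.77 for Hoxa10, which was -1.47 in chips and 0.30 in bone. It was 3.25 for Hoxb2, with 6.72 in bone and 3.47 in chips, and 1.49 for Hoxc6, which did not pass the test in either source alone. With the replicate block, which applies to the chip libraries, Hoxc6 missed the threshold (edgeR adjusted p = 0.0576), and Hoxb2 missed it without chip GFP- replicate 2 (0.112), with bone GFP+ replicate 2 alone (0.0591) and with libraries thinned (0.21). Bone and chips differ in preparation and in any batch as well, which cannot be told apart from the source.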

How the results depend on the processing

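Counts of members called are given as higher and lower by edgeR, with the value of the alternative. In bone, the count higher of 1 became 2 with no filter, 2 thinned and 4 in the fit of all 18 libraries, and the count lower of 2 became 6 without scaling factors and 0 with bone GFP+ replicate 2 alone. The bone and ESC numbers share only a number (correlations of same-numbered residuals -0.022 to 0.03 and -0.015 to -0.001), and with the replicate block the bone count lower was 1, Hoxc10 giving adjusted p = 0.0533. In chips, 2 higher became 0 thinned, and 9 lower became 5 thinned and 5 in the fit of all 18. In ESC-OB over ESC, 5 higher became 3 with the 1 CPM filter and 2 thinned, and 5 lower became 3 and 1. In ESC-OB over bone GFP+, 3 higher became 6 without scaling factors, 0 thinned and 0 in a fit of 6 libraries. In ESC-OB over chip GFP+, 1 higher became 0 with DESeq2, 3 without scaling factors, 0 thinned and 0 in a fit of 6, and 17 lower became 10 without scaling factors. In chip over bone GFP+, 2 higher became 4 with DESeq2, 6 without scaling factors and 1 thinned, and 5 lower became 2 without scaling factors and 2 thinned. In chip over bone GFP-, 9 higher became 5 thinned, and 3 genes of the interaction became 6 with DESeq2. Thinning leaves fewer genes to test, and the cause of the other changes was not tested.

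With each library left out, counts higher and lower ran from 1 to 2 and 1 to 3 in bone, 2 to 3 and 7 to 10 in chips, 4 to 7 and 5 to 5 in ESC-OB over ESC, 0 to 3 and 12 to 15 in ESC-OB over bone GFP+, 0 to 1 and 15 to 18 in ESC-OB over chip GFP+, 1 to 3 and 2 to 5 in chip over bone GFP+, and 4 to 7 and 0 to 0 in chip over bone GFP-, and 2 to 5 and 0 to 0 in the interaction. The bone count higher was 2 without bone GFP+ replicate 1. The count higher over chip GFP+ was 0 without chip GFP+ replicate 2 or 3 or ESC-OB replicate 1 or 3, and that of the interaction was 5 without bone GFP+ replicate 3. Without scaling factors 2 bone estimates changed sign, Hoxa10 to -0.73 (adjusted p = 0.0242) and Hoxc6 to -0.14 (0.798). Over single genes and alternatives, 976 kept direction and side of the threshold and 153 lost the call in the same direction. With the block, Hoxc4 in ESC-OB over bone GFP+ (adjusted p = 0.0568) and Hoxc6 in chip over bone GFP- (0.0585) also lost their calls. Depth limits the rare members, since the ESC libraries held 69 to 378 Hox counts each.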

Other observations

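Genes that flank the Hox clusters were counted beside them. The shares of all genes higher and lower were 19.5% and 22.1% in bone GFP+ over GFP-. They were 20.4% and 23.1% in chips, and 43.0% and 34.7% in ESC-OB over ESC. In bone, 4 of 8 tested neighbours were higher and 1 lower in GFP+ than in GFP-, and in chips 2 of 8 were higher. Skap2, beside cluster A, averaged 56.8 CPM in bone GFP+ and 20.8 CPM in bone GFP- (log2 fold change 1.31 ± 0.20, edgeR adjusted p = 0.000631), and 82.6 CPM in chip GFP+ and 40.3 CPM in chip GFP- (1.04 ± 0.15, 0.00171). Mtx2, beside cluster D, averaged 28.7 CPM in bone GFP+ and 8.30 CPM in bone GFP- (1.65 ± 0.24, 0.000507), while in chips it gave -0.27 ± 0.12 (0.115). In ESC-OB over ESC, 1 of 11 was higher and 7 were lower. Calcoco2, beside cluster B, averaged 0.36 CPM in ESC-OB and 228 CPM in ESC (-9.26 ± 0.59, edgeR adjusted p = 1.82e-07). Cluster B itself moved both ways, with Hoxb2 and Hoxb3 higher in ESC-OB. Its genes Hoxb9 (1 count in ESC-OB against 39 in ESC) and Hoxb13 (0 against 22) ran the same way as Calcoco2.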
